A study of Mus musculus with 4 samples.

Results

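The cells described here were activated T cells found among the cells of mouse lung that were sequenced singly in 4 libraries. They were chosen from their own transcripts, counted as UMIs (unique molecular identifiers, 1 per captured RNA molecule). Barcodes with 500 or more genes, and with no more than 10% of their UMIs from mitochondrial genes, were kept as cells. Such a cell was called a T cell with at least 2 UMIs over Cd3d, Cd3e and Cd3g and 0 UMIs of Cdh5 (endothelium), Cd79a and Ms4a1 (B cells). It was called activated with at least 2 UMIs over Icos, Ctla4, Foxp3 and Tnfrsf4. These gates found 1627 activated T cells among 2858 T cells and 23723 kept cells, and left 1231 other T cells. The levels of these 7 selecting genes, and the share of T cells that passed, are therefore given as a description and not as findings.

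The series compared lungs of wild-type (WT) mice after a sham operation with lungs taken on day 7 after PNX from WT mice and from mice with the conditional knockouts labelled M3cKO and Foxo1cKO. PNX (pneumonectomy) is the surgical removal of lung tissue, after which the remaining lung grows. Each group was 1 library, and the libraries are called sham, WT PNX, M3cKO PNX or Foxo1cKO PNX. Where 4 values follow one another without names they keep this order. The ages, the numbers of animals pooled, the cell type in which each gene was deleted and the gene meant by M3 are not stated in the labels used here. The lungs were digested with collagenase, cells carrying CD45, the pan-leukocyte surface protein, were removed with beads, and cells carrying CD31 were then kept. The product was labelled as endothelial, so the T cells were cells that came through a depletion meant to remove leukocytes. How many came through can differ from one preparation to the next, and this cannot be told apart from the group.

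T cells recognise antigen through a receptor coupled to the CD3 chains. Activation brings ICOS, a co-stimulatory receptor, OX40 (the product of Tnfrsf4), another co-stimulatory receptor, and CTLA-4, which competes with CD28 for shared ligands and restrains the response, to the cell. FOXP3 is the lineage factor of regulatory T cells, which hold high CTLA-4. In lung, CD4 helper cells of the Th17 type and gamma-delta T cells make IL-17A and IL-17F, which act on epithelium and stroma, and regulatory T cells with the IL-33 receptor can make the growth factor amphiregulin. Naive T cells instead carry CCR7, a chemokine receptor that guides them into lymph nodes.

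Some features of the whole libraries touch every comparison. Kept cells numbered 5319 to 6464 per library, library totals ran from 16197681 to 30445999 UMIs, and the median activated T cell held 2147 UMIs in sham and, after PNX, 2391 in WT, 2571 in M3cKO and 2445.5 in Foxo1cKO. Pairs of libraries shared 68 to 111 barcodes, and 1 barcode was shared between activated T cells, those of WT PNX and M3cKO PNX. Among the cells scored highest as doublets were 1, 6, 35 and 7 of the activated T cells, which were kept. Foxo1, the gene named in one knockout label, stood in activated T cells at 142 CPM (a gene's UMIs for every 1000000 UMIs summed over the cells) in sham and, after PNX, 366 in WT, 344 in M3cKO and 364 in Foxo1cKO. Its level in cells of the endothelial gate (at least 3 UMIs over Cdh5, Pecam1 and Cldn5, and none of the CD3, B cell or myeloid gate genes) was 195, 205, 186 and 65.1 CPM in the same order. The lower Foxo1 level of the Foxo1cKO PNX library was thus seen in the endothelial gate and not in its activated T cells. No check of the M3cKO label was possible, because the targeted gene is not given.

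The libraries also fell into pairs in ways that the labels do not explain. Male-type activated T cells, which held Y-linked but no Xist transcripts, numbered 17 in sham and, after PNX, 58 in WT, 567 in M3cKO and 98 in Foxo1cKO, whereas the converse female type numbered 0, 68, 0 and 62 cells. The stress chaperone gene Hspa1b was at 1920 CPM in activated T cells of sham and 367 in M3cKO PNX, but at 18.8 in WT PNX and at 22.4 in Foxo1cKO PNX. The same order held in other T cells, at 1432, 15.1, 347 and 32.3 CPM. Gdpd3, a glycerophosphodiesterase gene, was at 0, 136, 0.963 and 306 CPM in that order, and Gbp9, an interferon-induced guanylate-binding protein gene, at 0, 142, 18.0 and 149 CPM. Sham and M3cKO PNX therefore resembled each other in these genes and in holding male-type cells only, and a difference between M3cKO PNX and WT PNX cannot be told apart from this split. With 1 library per group there is no spread between animals and no test. All intervals are exact 95% intervals that cover counting error only. Those of ratios count UMIs, several of which can come from the same cell, and leave out the spread between cells.

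Most activated T cells lay in M3cKO PNX. The library held 953 of them among 1233 T cells, while sham held 37 among 84, WT PNX 267 among 651 and Foxo1cKO PNX 370 among 890. As a share of T cells this was 44.0% (33.2 to 55.3) in sham and, after PNX, 41.0% (37.2 to 44.9) in WT, 77.3% (74.8 to 79.6) in M3cKO and 41.6% (38.3 to 44.9) in Foxo1cKO. The M3cKO PNX share was the highest. The selecting rule itself sets this share, so it is a description, and the intervals do not measure spread between animals. Every T cell was then reduced at random to 1000 UMIs and both gates were applied again. Left out as shallower were 4, 9, 10 and 4 T cells, and 59, 446, 708 and 643 still passed the T cell gate. Of those 33.9%, 25.1%, 69.8% and 26.0% passed the activation gate. The loss at the T cell gate differed between libraries, and its part in these shares was not tested. At full depth, activated T cells were 0.696%, 4.17%, 17.2% and 5.72% of all kept cells. These values also move with how many leukocytes and endothelial cells each preparation kept.

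**Figure D1:**
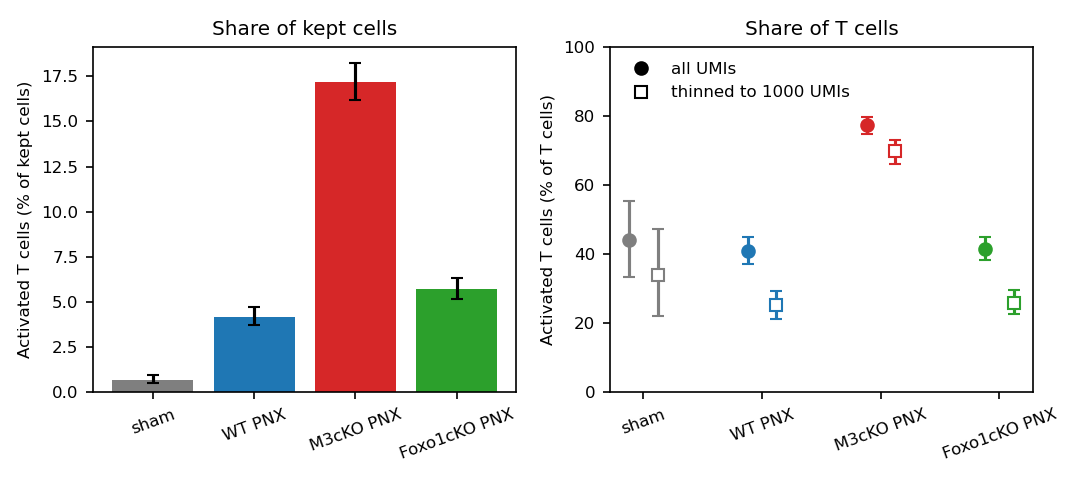
Left, activated T cells as a percentage of kept cells in each library (bars). Right, activated T cells as a percentage of T cells at full depth (filled circles) and after thinning each cell to 1000 UMIs (open squares). After thinning, the percentage is of the T cells that still passed the T cell gate. Error bars are exact 95% binomial intervals in both panels. M3cKO PNX, at 17.2% of kept cells and 77.3% of T cells, stands above the other libraries at either depth.

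The position of the cells within the gate differed too. The median activated T cell held 5 UMIs of the selecting activation genes in sham and, after PNX, 4 in WT, 11 in M3cKO and 5 in Foxo1cKO. Just outside the gate, with 1 such UMI, lay 13, 135, 107 and 173 T cells, and just inside it, with 2, lay 9, 82, 60 and 90. Maf, which encodes a transcription factor of effector T cells, was seen in 5.93% of WT PNX cells just outside, 17.1% of those just inside and 55.3% of those with 5 or more UMIs. The values for Maf in M3cKO PNX were 25.2%, 48.3% and 84.9%, and in Foxo1cKO PNX 11.0%, 11.1% and 53.5%. Ccr7, the receptor of naive and recirculating cells, was seen in 74.8%, 72.0% and 53.7% of these cells in WT PNX, in 75.7%, 76.7% and 52.9% in Foxo1cKO PNX, and in 62.6%, 31.7% and 25.3% in M3cKO PNX. Cells near the threshold in WT PNX and Foxo1cKO PNX thus mostly carried a naive-type transcript.

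Of the 4 activation genes used for selection, Icos was found most often. It was detected in 89.2% of activated T cells in sham and, after PNX, 81.6% in WT, 97.0% in M3cKO and 81.1% in Foxo1cKO. Ctla4 followed at 37.8%, 62.9%, 74.8% and 65.9%, in the same order. Tnfrsf4 was seen in 13.5%, 18.0%, 24.9% and 25.1% of the cells, and Foxp3 in 2.70%, 12.7%, 9.55% and 14.3%. Cd3e was detected in 86.5%, 87.3%, 86.3% and 89.2% of them. At least 2 of the 4 activation genes were found together in 32.4%, 57.3%, 77.2% and 64.1% of the cells. The T cell label was met in all 4 libraries by the CD3 genes that defined it, while the word activated suited the libraries unequally: Ccr7, a naive-type gene that the rule did not use, was detected in 63.3% of the WT PNX cells and in 63.0% of the Foxo1cKO PNX cells. The share with Ccr7 was 18.9% in sham and 27.2% in M3cKO PNX.

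CD4 and CD8 mark the helper and cytotoxic lineages. Cd4 without Cd8a or Cd8b1 was found in 18.9% (8.0 to 35.2) of activated T cells of sham, 56.9% (50.8 to 62.9) of WT PNX, 61.7% (58.5 to 64.8) of M3cKO PNX and 57.6% (52.4 to 62.7) of Foxo1cKO PNX. A CD8 gene without Cd4 was found in 13.5%, 14.2%, 4.62% and 12.4%, and neither in 67.6%, 26.6%, 30.2% and 27.6%. At full depth most activated T cells after PNX thus held Cd4 and no CD8 gene, in each of the 3 libraries. For composition, the activated T cells chosen at full depth were thinned to 1000 UMIs, and the gates were not applied again. Cd4 itself was then found in 35.8%, 37.7% and 38.1% of those after PNX, so that the majority was not seen at this depth. In the other T cells of M3cKO PNX, 23.6% had Cd4 alone and 40.0% a CD8 gene alone, the reverse order. Trdc, the constant segment of the delta receptor chain, was found in 45.9% (29.5 to 63.1) of the sham cells, 4.87% (2.62 to 8.18) of WT PNX, 8.60% (6.90 to 10.6) of M3cKO PNX and 3.51% (1.88 to 5.93) of Foxo1cKO PNX. Tcrg-C1, a constant segment of the gamma chain, was found in 59.5%, 7.87%, 27.5% and 3.51% of the cells of the same libraries.

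**Figure D2:**
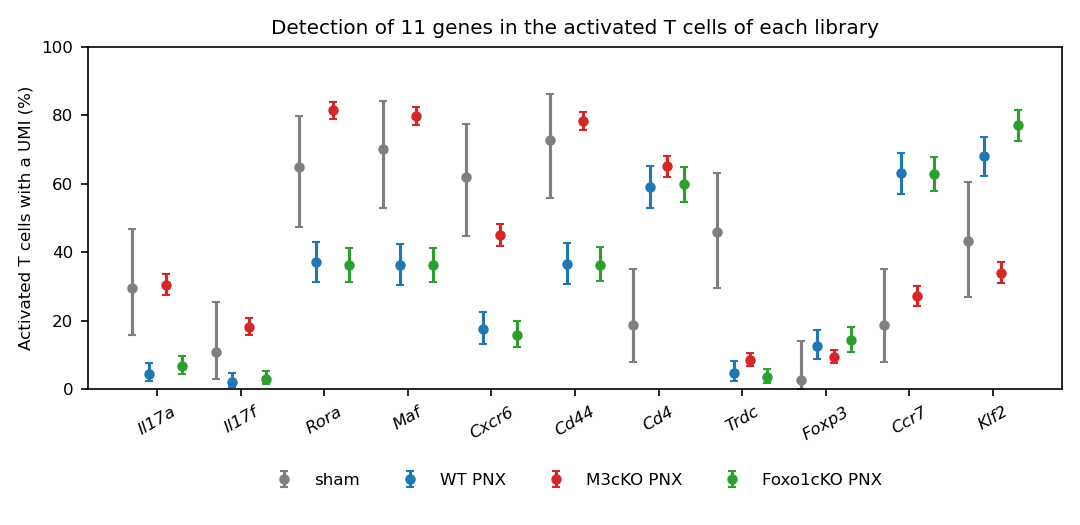
Percentage of activated T cells with at least 1 UMI of 11 genes (y axis, linear) in each library, with exact 95% binomial intervals. M3cKO PNX lies above WT PNX and Foxo1cKO PNX for Il17a (30.6% against 4.49% and 6.76%) and Rora and below them for Ccr7, while Trdc is highest in the 37 sham cells.

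Il17a (ENSMUSG00000025929), the gene of the cytokine IL-17A, separated the libraries further. It was detected in 11 of 37 activated T cells in sham (29.7%, 15.9 to 47.0), 12 of 267 in WT PNX (4.49%, 2.34 to 7.72), 292 of 953 in M3cKO PNX (30.6%, 27.7 to 33.7) and 25 of 370 in Foxo1cKO PNX (6.76%, 4.42 to 9.81). Sham and M3cKO PNX were high and WT PNX and Foxo1cKO PNX low, with no overlap between the intervals of these pairs. In other T cells Il17a was found in 2.13%, 0.260%, 2.50% and 0.577%, and its level in the B cell gate was 0 CPM in every library and at most 1.95 CPM in the endothelial gate. After thinning to 1000 UMIs Il17a was found in 25.7%, 3.4%, 20.2% and 3.78% of the activated T cells chosen at full depth. Its level stood at 393, 57.9, 353 and 77.1 CPM, with 1 cell holding 44.4% of the Il17a UMIs of sham and 40.0% of those of WT PNX. Il17f, its neighbouring paralogue, was found in 10.8%, 2.25%, 18.4% and 2.97% of the cells, so that here sham lay between the other values.

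The promoters of both cytokine genes are shown because Il17a and Il17f were higher together in M3cKO PNX. They are RefSeq windows from 250 bases before to 50 after the start on GRCm38.p6, the assembly behind mm10, Il17a at chr1:20730655-20730954 on the plus strand and Il17f at chr1:20784221-20784520 on the minus strand. Capitals mark AGGTCA (the core bound by ROR receptors), GGAAA (the NFAT core) and TGANTCA (the AP-1 site), each searched on both strands, so that AGGTCA can appear as TGACCT and GGAAA as TTTCC. The matches did not overlap one another.
Il17a: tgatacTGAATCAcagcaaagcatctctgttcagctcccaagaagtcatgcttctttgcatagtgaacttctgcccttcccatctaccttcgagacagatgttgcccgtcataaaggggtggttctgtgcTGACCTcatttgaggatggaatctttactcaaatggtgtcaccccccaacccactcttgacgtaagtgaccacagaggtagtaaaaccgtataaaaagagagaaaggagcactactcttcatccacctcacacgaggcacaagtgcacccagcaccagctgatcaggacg
Il17f: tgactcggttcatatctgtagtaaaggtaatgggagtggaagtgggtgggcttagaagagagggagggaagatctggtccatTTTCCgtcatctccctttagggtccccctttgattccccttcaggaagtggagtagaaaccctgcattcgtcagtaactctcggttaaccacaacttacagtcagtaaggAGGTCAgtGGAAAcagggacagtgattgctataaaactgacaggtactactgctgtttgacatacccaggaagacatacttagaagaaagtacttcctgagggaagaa
Both windows held 1 AGGTCA. At least 1 AGGTCA was found in 16.3% of the 32851 promoter windows of this length, GGAAA in 61.3% of them and TGANTCA in 7.81%. A match describes the letters and is not evidence of binding.

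The cells that made up the Il17a signal differed between libraries. In sham 9 of the 11 cells with Il17a also had Trdc (81.8%, 48.2 to 97.7) and 0 of 11 had Cd4. Taking 3 counts as the most that a count of 0 allows, a rule apart from the exact intervals, up to 27.3% of such cells could hold a Cd4 UMI. In M3cKO PNX 199 of 292 had Cd4 (68.2%, 62.5 to 73.5) and 39 had Trdc (13.4%, 9.67 to 17.8). WT PNX had 4 of 12 with Cd4 and 5 with Trdc, and Foxo1cKO PNX 12 of 25 with Cd4 and 3 with Trdc, too few to order these libraries. Counted the other way, Il17a was found in 0 of 7 activated T cells with Cd4 in sham, 4 of 158 in WT PNX (2.53%), 199 of 621 in M3cKO PNX (32.0%) and 12 of 222 in Foxo1cKO PNX (5.41%). Among cells with Trdc it was found in 9 of 17, 5 of 13, 39 of 82 and 3 of 13. Cxcr6, a chemokine receptor of tissue-resident T cells, was seen in 10 of the 11 sham cells with Il17a and in 199 of the 292 of M3cKO PNX (68.2%, 62.5 to 73.5). Sham and M3cKO PNX thus had like shares of cells with Il17a, while the sham cells with Il17a mostly carried Trdc, with a Cd4 UMI in 0 of 11, and those of M3cKO PNX mostly carried Cd4.

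Foxp3 marked 1 activated T cell in sham and, after PNX, 34 in WT, 91 in M3cKO and 53 in Foxo1cKO. Il1rl1, which encodes the IL-33 receptor, was found in 5 of 34 of these cells in WT PNX (14.7%, 4.95 to 31.1), 37 of 91 in M3cKO PNX (40.7%, 30.5 to 51.5) and 7 of 53 in Foxo1cKO PNX (13.2%, 5.48 to 25.3). Areg, the gene of amphiregulin, was found in 8.82% (1.86 to 23.7), 39.6% (29.5 to 50.4) and 13.2% (5.48 to 25.3), in the same order of libraries. Gata3, a transcription factor of type 2 cells, was found in 20.6% (8.70 to 37.9), 47.3% (36.7 to 58.0) and 18.9% (9.44 to 32.0). Ikzf2, encoding the factor Helios, was found in 38.2% (22.2 to 56.4), 60.4% (49.6 to 70.5) and 30.2% (18.3 to 44.3). Between M3cKO PNX and WT PNX the intervals overlapped for Il1rl1, Gata3 and Ikzf2 and not for Areg, while M3cKO PNX and Foxo1cKO PNX did not overlap for these 4 genes. The naive-type gene Ccr7 ran the other way, in 85.3%, 35.2% and 77.4% of the cells with Foxp3. Il2ra, the high-affinity IL-2 receptor chain, was in 67.6%, 53.8% and 54.7%, with overlapping intervals. The median cell with Foxp3 held 2421.5, 3119 and 2610 UMIs, so the M3cKO PNX cells were also deeper, and the part of depth in these shares was not tested. Il17a was found in 0, 12 and 1 of these cells.

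**Figure D3:**
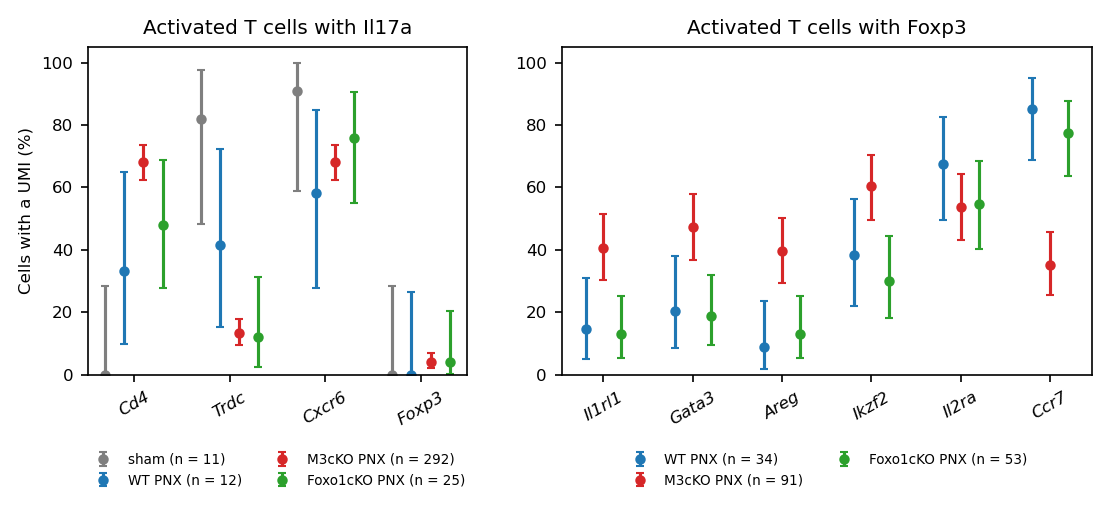
Percentage of cells with a UMI of the named gene among activated T cells with Il17a (left) and with Foxp3 (right), by library, with exact 95% binomial intervals and the number of cells in the key. Cd4 is in 68.2% of the 292 M3cKO PNX cells with Il17a and in 0 of the 11 sham cells, and among cells with Foxp3 the M3cKO PNX share of Areg lies above and that of Ccr7 below the intervals of WT PNX and Foxo1cKO PNX, while its intervals for Il1rl1 and Gata3 overlap those of WT PNX.

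Within a library, activated and other T cells shared the preparation. Activated cells were the deeper ones, with medians of 2391 against 2082.5 UMIs in WT PNX, 2571 against 2382.5 in M3cKO PNX and 2445.5 against 2275 in Foxo1cKO PNX. UMIs were summed over each population and a gene was counted as higher or lower at 2-fold or more on log2(CPM + 5), among genes with at least 50 CPM in either sum and 20 UMIs over both. This was done in the 3 libraries with at least 50 activated T cells, and sham, with 37, was left out. The contrast is the one the gate made, so its counts describe the gate. In WT PNX 159 of 3426 genes were 2-fold apart (4.64%), 122 of them higher (3.56%) and 37 lower (1.08%) in activated cells. In M3cKO PNX the count was 368 of 3416 (10.8%), with 268 higher (7.85%) and 100 lower (2.93%), and in Foxo1cKO PNX 191 of 3301 (5.79%), with 174 higher (5.27%) and 17 lower (0.515%). Without genes that had over 25% of their UMIs in 1 cell, WT PNX had 117 higher and 10 lower and Foxo1cKO PNX 148 higher and 8 lower. In male-type cells alone, an alternative chosen after seeing the data like the one before it, WT PNX had 131 higher and 156 lower, so that the balance turned, and Foxo1cKO PNX had 314 higher and 70 lower. Removal of doublets gave 194 higher and 10 lower in Foxo1cKO PNX, where scaling by TMM factors moved the ratios by up to 0.14 on the log2 scale and gave 137 higher and 26 lower. The median log2 ratio of all measured genes was 0.07, 0.08 and 0.12 in these comparisons. Of 2801 genes measured in all 3 comparisons 58 were higher in each (2.07%) and 0 were lower in each.

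The level filter and other cell types bear on these counts. A gene that reached 50 CPM in only 1 of the sums was measured because it was high there, so list counts are also given among the genes that reached it in both, a split made after seeing the data. Over all genes these numbered 2730 in WT PNX, 30 of them higher and 6 lower, 2609 in M3cKO PNX, 118 higher and 34 lower, and 2645 in Foxo1cKO PNX, 40 higher and 2 lower. After PNX, the 3 neutrophil markers summed to 405 CPM in activated and 6.98 in other T cells for WT, to 234 against 4628 for M3cKO and to 1730 against 1118 for Foxo1cKO. The 4 fibroblast and mural markers summed likewise to 26.0 against 812, 15.4 against 10.4 and 347 against 18.1 CPM, and the 4 epithelial markers to 26.3 and 1995 in Foxo1cKO PNX. The part of these transcripts in the counts was not tested.

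Genes of the Th17, residency and regulatory T cell lists were among those higher in all 3 comparisons. Maf stood at 428 CPM in activated against 19.8 in other T cells of WT PNX, 1171 against 150 in M3cKO PNX and 460 against 65.4 in Foxo1cKO PNX. Il2ra stood at 179 against 9.30, 238 against 57.3 and 196 against 17.3 CPM in the same order. It was detected in 21.0%, 35.7% and 15.1% of the activated T cells. In Foxo1cKO PNX a single activated cell held 31.8% of the Il2ra UMIs. Of the 7 genes of the Th17 list Ccr6, Il17a and Rora were higher in each comparison, and Il17f and Il1r1 in M3cKO PNX as well. Most were measured only because they were high in activated cells, and Rora in M3cKO PNX and in Foxo1cKO PNX was the one gene to reach 50 CPM in both sums. In the residency and chemokine receptor list 7 of 12, 9 of 13 and 7 of 12 measured genes were higher, among them Cxcr6, Ccr2, Rgs1, Itgb1, S100a4, S100a6 and Lgals1 in each. Among those at 50 CPM in both sums it was 5 of 10, 9 of 12 and 5 of 10. S100a4, a calcium-binding protein gene of memory cells, was at 648 against 59.3 CPM in WT PNX, 1085 against 218 in M3cKO PNX and 779 against 102 in Foxo1cKO PNX. The regulatory T cell list had 4 of 8, 7 of 10 and 5 of 8 genes higher, with Il2ra, Ikzf2 and Capg, an actin-capping protein gene, in each. Among the 3 genes of each comparison at 50 CPM in both sums 0, 2 and 1 were higher.

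Naive-type and CD8 genes were further apart in M3cKO PNX than in the other libraries, a difference that was not tested. Of 10 naive-type genes 7 were lower there (6 of the 9 at 50 CPM in both sums), against 1 in WT PNX (Lef1, 334 against 685 CPM) and 0 in Foxo1cKO PNX. Of the CD8 and cytotoxicity list 6 of 7 were lower in M3cKO PNX, 0 of 8 in WT PNX and 1 of 7 in Foxo1cKO PNX, where Ccl5 and Gzmb were higher. Among the activated cells of Foxo1cKO PNX 1 cell held 28.8% of the Ccl5 UMIs and 1 cell 44.9% of the Gzmb UMIs. In M3cKO PNX 5 of the 7 reached 50 CPM in 1 sum only, and of the other pair, Ccl5 and Gzmb, Ccl5 was lower. Cd8b1 was at 38.2 CPM in activated and 291 in other T cells of M3cKO PNX, and Prf1, the perforin gene, at 8.67 and 67.8. Proliferation genes were higher for 8 of 11 in Foxo1cKO PNX, 3 of 7 in M3cKO PNX and 0 of 6 in WT PNX. In Foxo1cKO PNX these 8 genes all reached 50 CPM in 1 sum only, and neither Pcna nor Stmn1, which reached it in both, was 2-fold apart. Ube2c, a mitotic ubiquitin-conjugating enzyme gene, was at 128 against 5.52 CPM in Foxo1cKO PNX, where 21 of 370 activated cells held it.

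Further genes led single comparisons. In M3cKO PNX Il17f was at 229 CPM in activated against 5.21 in other T cells, Ccr4, a chemokine receptor of helper and regulatory cells, at 138 against 9.12, and Ccr6, the receptor of CCL20, at 175 against 13.0. Hlf, a PAR bZIP transcription factor gene, was at 236 against 27.4 CPM there, and the membrane protein gene Tmem176a at 583 against 71.7. Lower leading genes in M3cKO PNX were Igfbp4, a binding protein for insulin-like growth factors, at 74.1 against 521 CPM, and Bach2, a transcriptional repressor of effector programmes, at 32.4 against 169. In WT PNX Cxcr6 was at 145 against 5.82 CPM and Ikzf2 at 126 against 6.98. In Foxo1cKO PNX Tiam1, a Rac exchange factor gene, was at 108 against 7.09 CPM, Bcl2a1b, a survival gene of the BCL2 family, at 167 against 18.1, and Socs2, a suppressor of cytokine signalling, at 59.5 against 4.73. Several extreme values came from 1 cell: 95.6% of the Scgb1a1 UMIs of the activated Foxo1cKO PNX cells, 99.4% of the Sftpc UMIs of the other T cells there and 91.3% of the Hdc UMIs of the other T cells of WT PNX.

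**Figure D4:**
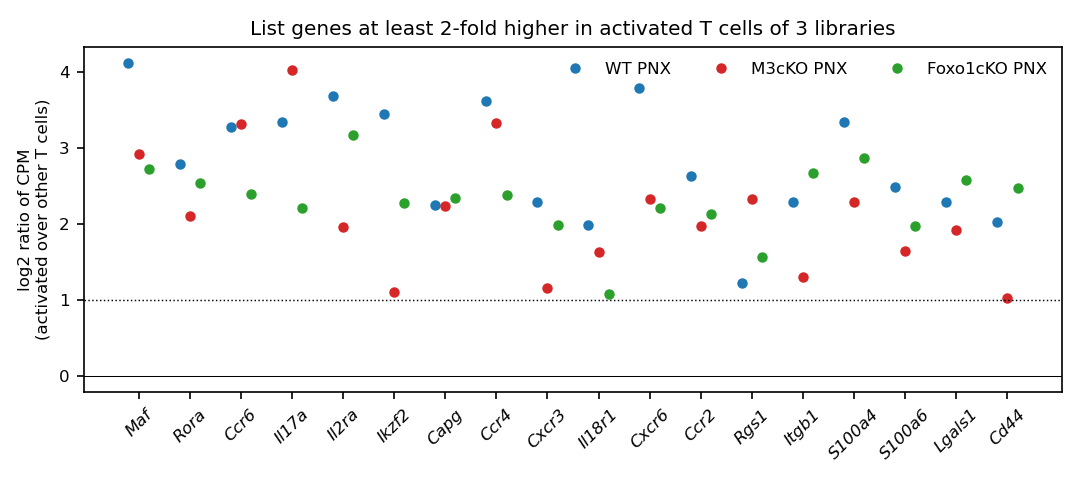
Log2 ratio of CPM (pseudocount 5) of activated over other T cells of the same library for 18 list genes that were at least 2-fold higher in all 3 libraries with 50 or more activated T cells; the dotted line marks 2-fold. Each point is 1 library and carries no error between animals. Maf, Rora, Ccr6, Il17a, Il2ra, Capg, Ccr4, Cxcr6, Ccr2, S100a4 and Lgals1 lie above a log2 ratio of 1.9 in each. The genes were chosen for being higher, and some, Ccr6 and Il17a in each library among them, reached 50 CPM in activated cells only. A single activated cell held 40% of the Il17a UMIs in WT PNX, and a single one 31.8% of the Il2ra UMIs in Foxo1cKO PNX.

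Between knockout and wild type after PNX, activated T cells of M3cKO PNX were richer in Th17-type, residency and stress transcripts and poorer in naive-type transcripts, Cd8a and Cd8b1 than those of WT PNX. Of 3585 genes 470 were 2-fold apart (13.1%), 295 higher (8.23%) and 175 lower (4.88%) in M3cKO PNX, around a median log2 ratio of -0.05. TMM scaling added up to 0.14 to the log2 ratios and gave 367 higher and 122 lower. This shift is smaller in size than each list median printed for this comparison, so none of those medians changes sign under it. In male-type cells only, a choice made after seeing the data, 801 genes were 2-fold apart, with 58 WT PNX cells left. With all activated T cells, 128 of the 2675 genes at 50 CPM in both libraries were higher and 63 lower in M3cKO PNX. This comparison and that of Foxo1cKO PNX share the WT PNX library.

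Of the 7 genes of the Th17 list 5 were measured and higher in M3cKO PNX. Il17a, Ccr6 and Rora reached 50 CPM in both libraries, whereas Il17f and Il1r1 were measured only through M3cKO PNX, where they were high, so the count and the list median (1.58) are partly set by the filter. Il17a was at 353 against 57.9 CPM, 6.09 times as high (4.45 to 8.58), and Il17f at 229 against 46.3 CPM, 4.96 times (3.48 to 7.30). The WT PNX values of Il17a and Il17f rested on 12 and 6 cells, and 1 cell held 46.9% of the Il17f UMIs there. Ccr6 was at 175 against 55.0 CPM, Il1r1, the IL-1 receptor gene, at 83.8 against 24.6, and Rora, which encodes a ROR receptor, at 1046 against 352. Over all libraries Rora stood at 720 CPM in sham and 334 in Foxo1cKO PNX and Ccr6 at 54.5 and 83.9. Rora and Il1r1 were thus also above WT PNX in sham, whereas Ccr6 was not, at 54.5 against 55.0 CPM. Of the 6 gamma-delta genes 4 were measured and 3 higher: Cd163l1 at 115 against 33.3 CPM, Tcrg-C1 at 289 against 135 and Tcrg-C2 at 74.5 against 33.3. Cd163l1 and Tcrg-C2 were measured only through M3cKO PNX, and in WT PNX 1 cell held 26.1% of the UMIs of either. Trdc itself was 1.38 times as high (1.12 to 1.72), an interval that counts UMIs and leaves out the spread between cells. The share of cells with Trdc was 8.60% (6.90 to 10.6) against 4.87% (2.62 to 8.18), with overlapping intervals.

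Residency and helper genes were higher in part. Of 13 residency and chemokine receptor genes 5 were higher and 0 lower (median 0.67; 5 of the 12 at 50 CPM in both libraries), among them Rgs1, a regulator of G protein signalling, at 937 against 273 CPM, Crem, a cAMP-responsive factor gene, at 774 against 232, and Cxcr6 at 337 against 145. Sham held 491 CPM of Rgs1, 273 of Crem and 731 of Cxcr6, and Foxo1cKO PNX 289, 151 and 142. Of the CD4 list Cd40lg, the CD40 ligand gene, was at 80.6 against 28.9 CPM and Tnfsf8, the CD30 ligand gene, at 418 against 184, while Cd4 itself stood at 514 against 457, 1.12 times (0.996 to 1.27). The Th1 list had 3 of 4 genes higher (2 of 3 at 50 CPM in both), which encode IL-18 receptor chains (Il18r1, Il18rap) and the signal transducer Stat4. Ifng, the cytokine gene of Th1 cells, was found in 8.11%, 1.12%, 3.99% and 2.43% of the activated T cells. Il4, Il5 and Il13 were each found in at most 2.70% of the activated T cells of any library.

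In the regulatory T cell list 3 of 11 genes were higher (Areg, Il1rl1 and Tnfrsf9) and 2 lower (Gpr83 and Izumo1r), with a median of 0.52. Of its 6 genes at 50 CPM in both libraries Areg was higher and Izumo1r lower. Tnfrsf9, the co-stimulatory receptor gene of 4-1BB, was at 80.2 against 14.5 CPM. Gpr83, a receptor gene of regulatory cells, was at 3.21 against 85.4 CPM, with 0 in sham and 101 in Foxo1cKO PNX, and Izumo1r, a folate receptor gene of regulatory and follicular helper cells, at 58.4 against 174. Il2ra (238 against 179 CPM), Ikzf2 (92.8 against 126) and Tnfrsf18 (89.2 against 113) were less than 2-fold apart. The activation list had 4 of 14 higher (1 of the 11 at 50 CPM in both), among them Nfkb1, an NF-kappaB subunit gene, at 350 against 130 CPM, and 1 lower, the co-stimulatory receptor gene Cd27, at 118 against 349. None of 3 inhibitory receptor and Tox genes measured was 2-fold apart.

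Naive-type genes formed the largest lower group by median among the lists. Of 10 genes 8 were lower in M3cKO PNX and 0 higher (median -1.67), and 7 of the 9 at 50 CPM in both libraries were lower. Ccr7 was at 267 against 868 CPM, 3.25 times as high in WT PNX (2.92 to 3.61). Klf2, the factor that drives expression of the egress receptor gene S1pr1, was at 276 against 969 CPM and S1pr1 at 333 against 884. Igfbp4 was at 74.1 against 695 CPM and Dapl1, a gene of naive T cells, at 13.5 against 133. The levels in sham were 153 CPM for Ccr7, 349 for Klf2 and 54.5 for Igfbp4. Those in Foxo1cKO PNX were 881, 1130 and 487 CPM. Sham thus stood with M3cKO PNX, and Foxo1cKO PNX with WT PNX. Of the FOXO1 target list, which shares Ccr7, Klf2 and S1pr1 among others with the naive list, 6 of 9 genes were lower (median -1.39), and 5 of the 8 at 50 CPM in both libraries.

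CD8 and interferon genes were lower as well. Of 7 CD8 and cytotoxicity genes 5 were lower, with Cd8a at 23.4 against 122 CPM and Cd8b1 at 38.2 against 145, and 1 higher, the granzyme gene Gzmb, at 158 against 73.8. Of these 7 genes Ccl5, lower, and Gzmb, higher, reached 50 CPM in both libraries, and the others were measured through 1 of them. The WT PNX values of Ccl5 and Gzmb rested on 20 and 13 cells, and 1 cell held 25.6% and 27.5% of their UMIs there. The interferon list had 4 of its 7 measured genes lower and none higher (median -1.02; 3 of the 6 at 50 CPM in both libraries), with Ifi27l2a at 225 against 634 CPM and the guanylate-binding protein gene Gbp7 at 96.3 against 223. Of these 4, Gbp2 (log2 ratio -1.02) and Zbp1 (-1.07) lay within the TMM shift of the 2-fold limit. The immediate early and heat shock list had 7 of 12 genes higher (median 1.19; 5 of the 9 at 50 CPM in both libraries), among them Junb, an AP-1 subunit gene, at 1933 against 658 CPM. Hspa1a was at 118 against 1.45 CPM and Dnajb1, a co-chaperone gene, at 319 against 123. Junb was at 2465 CPM in sham and 671 in Foxo1cKO PNX. Junb was thus high in sham as well as in M3cKO PNX. None of 7 proliferation genes was 2-fold apart, with Mki67 at 138 against 76.7 CPM.

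**Figure D5:**
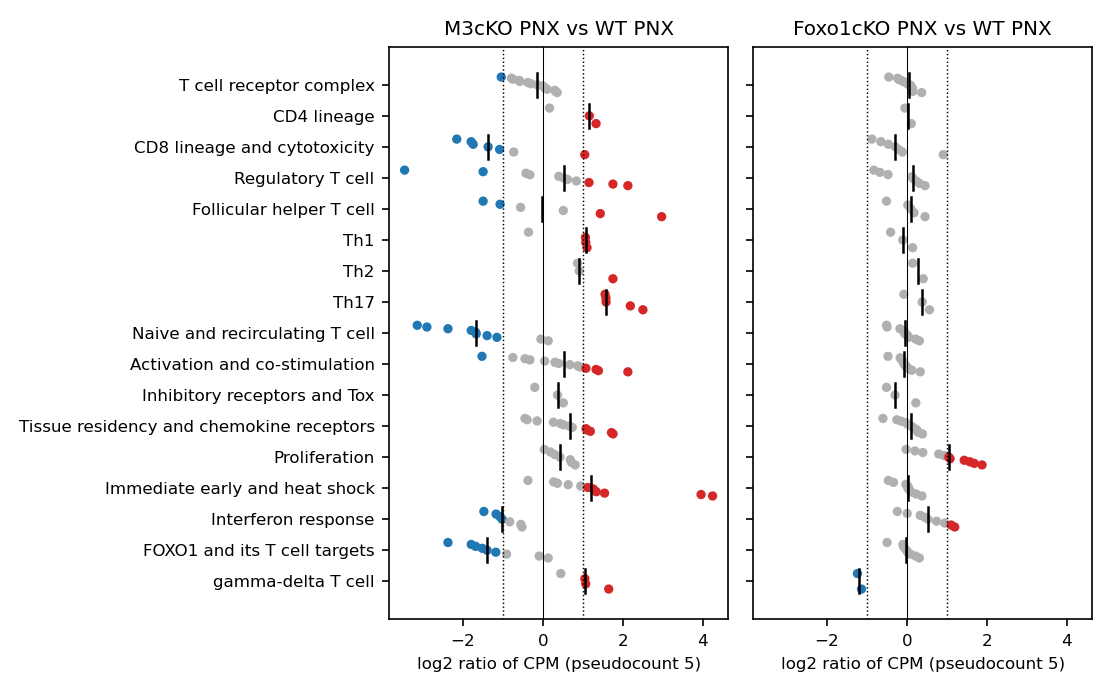
Log2 ratio of CPM (pseudocount 5) in activated T cells of M3cKO PNX (left) and Foxo1cKO PNX (right) over the same WT PNX library, with 1 point per measured list gene, red at least 2-fold higher, blue at least 2-fold lower, grey in between; short lines are list medians and dotted lines 2-fold. In M3cKO PNX the naive list (median -1.67) lies to the left and the 5 measured Th17 genes to the right, 2 of them measured only through M3cKO PNX. In Foxo1cKO PNX the proliferation list has the most genes past 2-fold, 6 of 11, and 1 of the 6 measured at 50 CPM in both libraries.

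Odc1, a gene outside the lists, was among the leading differences. It encodes ornithine decarboxylase, the rate-limiting enzyme of polyamine synthesis, and was detected in 51.4% of activated T cells in sham and, after PNX, 31.1% in WT, 91.0% in M3cKO and 55.7% in Foxo1cKO. Its levels were 534, 161, 2852 and 617 CPM. M3cKO PNX was 17.8 times WT PNX (14.7 to 21.6), and in other T cells the levels were 467, 245, 1045 and 399 CPM, again highest in M3cKO PNX. Hlf was at 236 against 26.0 CPM and found in 35.4% against 4.87% of the cells, with 10.8% in sham and 9.73% in Foxo1cKO PNX. Tox2, an HMG-box factor gene of the follicular helper list, was at 57.1 against 2.89 CPM and was measured only through M3cKO PNX. That list had 2 of 6 measured genes higher (Maf and Tox2) and 2 lower (Izumo1r and Slamf6). Of its 4 genes at 50 CPM in both libraries 1 was higher and 2 were lower. Calca, the gene of calcitonin and its related peptide, was at 53.0 against 1.45 CPM, found in 6.61% of the M3cKO PNX cells against 0.375% in WT PNX, 5.41% in sham and 0.270% in Foxo1cKO PNX. Il6st, the gp130 signalling chain shared by IL-6 family receptors, was lower, at 55.2 against 347 CPM, with 32.7 in sham and 331 in Foxo1cKO PNX. The Notch pathway gene Dtx1 was lower at 5.46 against 55.0 CPM.

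Some leading differences rested on few cells or on genes of other cell types. Ccl3, a chemokine gene, was at 176 CPM in 44 of 953 cells of M3cKO PNX and in 0 of 267 of WT PNX, at least 40.6-fold higher against a floor of 3 UMIs in WT PNX, and its level in sham was 829 CPM, of which 1 cell held 98.7%. Ccl4 was found in 26 cells, Hdc, the histamine-forming enzyme gene of mast cells and basophils, in 39 and the cytokine receptor gene Csf2rb in 54. H2-Eb1, a class II antigen presentation gene, was at 858 against 76.7 CPM but in 75 of 953 cells, and 1 cell held 92.5% of its WT PNX UMIs, while the myeloid gate of M3cKO PNX stood at 2576 CPM. In activated T cells the 7 macrophage and monocyte markers summed to 175, 288, 1382 and 560 CPM, and in other T cells to 169, 532, 1149 and 260 CPM. All 7 had a UMI in activated T cells of M3cKO PNX and of Foxo1cKO PNX. In activated T cells C1qa and Fcgr4 were at 0 in sham and WT PNX, and C1qb in sham. The 5 B cell markers summed to 109, 119, 679 and 157 CPM, with Cd79a and Ms4a1 at 0 by the gate, and the 3 plasma cell markers to 76.3, 119, 675 and 109, with Jchain at 0 in sham and Foxo1cKO PNX and Mzb1 at 0 in sham. The 7 NK and innate lymphoid markers summed to 404, 198, 454 and 264, with Ncr1 at 0 in sham, WT PNX and Foxo1cKO PNX. The 7 endothelial markers summed to 273, 369, 157 and 359 CPM. Their part in these genes was not tested. Without genes that had over 25% of their UMIs in 1 cell, 457 genes were 2-fold apart.

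Foxo1cKO PNX differed less from WT PNX. Of 3455 genes 75 were 2-fold apart (2.17%), 57 higher (1.65%) and 18 lower (0.521%), around a median of -0.02, and 41 without genes that had over 25% of their UMIs in 1 cell. Among the 2837 genes at 50 CPM in both libraries 10 were higher and 3 lower in Foxo1cKO PNX. Of the neutrophil granule genes, Ngp, Ltf, Camp and Lcn2 had all of their Foxo1cKO PNX UMIs in 1 cell. Likewise the stromal genes Col3a1, Col1a1 and Eln had 97.0%, 94.9% and 95.2% in 1 cell. The neutrophil markers summed to 1730 CPM there against 405 in WT PNX. The proliferation list had 6 of 11 genes higher, 5 of which were measured only through Foxo1cKO PNX, and 1 of the 6 at 50 CPM in both libraries was higher. Among the higher genes were Ube2c at 128 against 36.2 CPM and Top2a, a topoisomerase gene, at 185 against 86.8. The share of cells with Top2a was 7.84% against 8.24%, so the higher level did not come with a higher share of cells. Ifit1 and Irf7, interferon-induced genes, were higher, at 116 against 47.7 and 68.3 against 28.9 CPM, and were likewise measured only through Foxo1cKO PNX. Of the gamma-delta list Trdc was at 58.5 against 145 CPM and Tcrg-C1 at 58.5 against 135. In male-type cells alone the log2 ratio of Tcrg-C1 was 0.39, the opposite direction. None of 9 FOXO1 target genes, 10 naive-type genes and 3 Th17 genes was 2-fold apart, with medians of -0.01, -0.05 and 0.38, and Il17a stood at 77.1 against 57.9 CPM.

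The differences seen within the male-type cells and above a stricter gate can be set beside these values, both chosen after seeing the data. Among male-type activated T cells Il17a was found in 5 of 17 in sham and, after PNX, 2 of 58 in WT, 184 of 567 in M3cKO and 5 of 98 in Foxo1cKO, and Ccr7 in 11.8%, 74.1%, 29.6% and 56.1%. The share of male-type T cells that passed the activation gate was 47.2%, 47.2%, 79.6% and 38.9%. With at least 5 UMIs of the activation genes Il17a was found in 30.0%, 5.69%, 34.9% and 10.7% of the cells, Ccr7 in 10.0%, 53.7%, 25.3% and 52.9%, and Foxp3 in 5.0%, 25.2%, 11.3% and 25.1%. The order of M3cKO PNX and WT PNX was the same for Il17a and Ccr7 in each of these subsets.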

How the data were processed

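Single-cell RNA libraries of mouse lung, 1 per group, were used as the raw UMI counts per gene and barcode that the authors deposited, 32285 genes without normalization. Cell Ranger 2.1.1 and the mouse build mm10 are named per the labels' protocols, R 3.4.4 per the submitters' processing notes, and a software version of 3.0.0 per the file headers. Totals per library and the exact intervals give the precision. Groups came from the sample titles. Python 3.11.15 with numpy 2.4.6, scipy 1.17.1 and pandas 2.3.3 applied the gates, summed UMIs and gave exact Poisson (levels), Clopper-Pearson (shares) and conditional binomial (ratios) 95% intervals. A pseudocount of 5 CPM was added before the log2 ratio. No count test was made, because each group is 1 library, and sham, with under 50 members, entered no comparison across genes. Doublets were left to the gates, and removal of the highest Scrublet scores (scanpy 1.11.5) at 0.8% per 1000 barcodes was an alternative. A myeloid or B cell gate took kept cells with at least 3 UMIs of their markers.

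Named genes were the 10 with the largest ratio in each direction among called genes. For activated against other T cells they had to lie in the same direction in every library compared. Genes of the gate, of mitochondria, ribosomes, haemoglobin and immunoglobulins, variable and joining segments of receptors, sex-linked genes, gene models known by number and genes over 5 times as high in another gate were passed over. To these were added up to 4 members of each of the gene lists and a few fixed genes. The members and lists were chosen with earlier results of these data known. Genes of single cells, of the library pairs and of the Il17a and Foxp3 subsets were chosen after their values were seen. The counting steps were tested on simulated data. Alternatives were other gates, thinning, filters, pseudocounts and TMM scaling (edgeR 4.0.16 in R 4.3.3). Promoter windows came from RefSeq. Values of some genes within the lists are not reported here.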

Additional observations from a re-analysis of the deposited data

Results flagged for a closer look

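The ratios of activated over other T cells pointed in opposite directions between libraries for a pair of genes. The difference between the libraries was not tested, since each is 1 sample. Ccl5, a chemokine gene of cytotoxic cells, had a log2 ratio of 1.09 in Foxo1cKO PNX (495 against 230 CPM, found in 14 and 17 cells) and of -2.46 in M3cKO PNX (167 against 941 CPM, found in 59 and 32 cells). In Foxo1cKO PNX 1 cell held 28.8% of the Ccl5 UMIs in either population. Il1rl1, the IL-33 receptor gene, had a log2 ratio of 2.03 in M3cKO PNX (95 against 19.5 CPM, found in 67 and 4 cells) and of -1.40 in WT PNX (24.6 against 73.3 CPM, found in 9 and 3 cells). Of the Il1rl1 UMIs of other T cells, 1 cell held 73.3% in M3cKO PNX and 88.9% in WT PNX.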

How the results depend on the processing

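The settings below all used the same selecting genes, so none is separate support for another. The share of T cells that passed the activation gate was highest in M3cKO PNX under every gate that gave a value. Over sham and the WT, M3cKO and Foxo1cKO PNX libraries it was 59.5%, 61.8%, 86.0% and 61.0% with a gate at 1 UMI. It was 23.8%, 18.9%, 62.9% and 21.0% at 5 UMIs, an alternative chosen after seeing the data. For the PNX libraries it was 28.4%, 72.4% and 31.5% at 3 UMIs, 52.2%, 80.8% and 49.4% with at least 1000 genes per cell, and 25.1%, 69.8% and 26.0% after thinning. As a percentage of kept cells the PNX libraries had 6.28%, 19.1% and 8.40% at 1 UMI and 2.89%, 16.1% and 4.33% at 3 UMIs. In all 4 libraries it was 0.376%, 1.92%, 14.0% and 2.89% at 5 UMIs and 0.395%, 1.81%, 9.52% and 2.69% after thinning. M3cKO PNX had 15.2% with the T cell gate at 3 UMIs and 22.0% with at least 1000 genes.

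Composition moved with the gate and depth. At 5 UMIs Cd4 was in 68.4% of M3cKO PNX cells, Foxp3 in 25.2% (WT PNX) and 25.1% (Foxo1cKO PNX), Il17a in 34.9% (M3cKO PNX) and 10.7% (Foxo1cKO PNX), Il2ra in 38.2%, 39.7% and 25.1% of the PNX libraries, and Ccr7 in 53.7% (WT PNX) and 52.9% (Foxo1cKO PNX). For thinning, the activated T cells chosen at full depth were kept and not gated again. The PNX libraries then had Cd4 in 35.8%, 37.7% and 38.1%, Foxp3 in 8.68%, 5.90% and 8.11%, and Ccr7 in 49.4%, 13.9% and 45.1%. Il17a was then in 20.2% of M3cKO PNX and 3.78% of Foxo1cKO PNX cells, Trdc in 1.62% of Foxo1cKO PNX cells, and Il2ra in 17.1%, 12.1%, 18.7% and 8.11% over the 4 libraries.

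The number of genes 2-fold apart followed the filter, as its construction sets the number tested. Between activated and other T cells of WT PNX, M3cKO PNX and Foxo1cKO PNX it was 78, 224 and 89 at 100 CPM, 397, 840 and 473 without a filter, and 305, 240 and 332 with the gate at 5 UMIs. In male-type cells it was 287 in WT PNX and 384 in Foxo1cKO PNX. For M3cKO PNX against WT PNX it was 274 at 100 CPM, 1075 without a filter and 801 in male-type cells. For Foxo1cKO PNX against WT PNX it was 48 with the gate at 1 UMI, 139 at 5 UMIs, 49 with a pseudocount of 20 CPM, 28 at 100 CPM, 245 without a filter, 311 in male-type cells and 41 without genes held mostly by 1 cell (over 25%). The cause of the changes with gate and cell type was not tested.

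Of the values of single genes, 2064 kept direction and size, 378 moved and 18 reversed. Between activated and other T cells, the log2 ratio of Adam8 in WT PNX became -0.21 in male-type cells. In Foxo1cKO PNX that of Scgb1a1 became -4.05 at 3 UMIs, -3.60 at 5 UMIs and -0.16 in male-type cells, and that of Sftpc 6.48 at 1 UMI and 0.28 without doublets. For Foxo1cKO PNX against WT PNX it became -1.05 for Col1a1, -0.67 for Eln, 2.99 for Ptgs2, 0.39 for Tcrg-C1 and 0.025 for Zfp652 in male-type cells. At 5 UMIs it became -1.03 for Col3a1, -1.18 for Eln, -1.12 for Lcn2 and -0.10 for Scgb1a1. At 3 UMIs it became -0.86 for Lcn2 and -0.21 for Scgb1a1, and without doublets -0.19 for Scgb1a1. The alternatives in male-type cells and without genes of 1 cell were also chosen after seeing the data. A limit of 5% mitochondrial UMIs left under 50 cells in every comparison, as did 1000 genes in sham, and neither gave a value there. No paired analysis was possible because each group is 1 library and the labels carry no replicate numbers. Depth limits the sham values most, with 37 cells.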

Other observations

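Gamma-delta cells among the activated T cells, taken as those with Trdc, numbered 17 in sham and, after PNX, 13 in WT, 82 in M3cKO and 13 in Foxo1cKO. Il2ra was found in 58.8%, 30.8%, 58.5% and 23.1% of them, Pdcd1, the gene of the inhibitory receptor PD-1, in 47.1%, 46.2%, 58.5% and 30.8%, and Cxcr6 in 82.4%, 46.2%, 68.3% and 23.1%. With so few cells outside M3cKO PNX the intervals of these shares overlapped between most libraries.

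A cell without a Foxp3 UMI is not shown to lack Foxp3. Areg was also found in activated T cells without such a UMI. In M3cKO PNX it was found in 36 of 91 activated T cells with a Foxp3 UMI (39.6%) and in 167 of 862 without one (19.4%, 16.8 to 22.2), against 14 of 233 without one in WT PNX (6.01%, 3.32 to 9.88). Among cells with Il17a, Areg was found in 3 of 11 in sham and, after PNX, 4 of 12 in WT, 83 of 292 in M3cKO and 5 of 25 in Foxo1cKO.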
